A study of Homo sapiens with 16 samples.

Results

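The genes described here are 39 parts and targets of the NF-kB pathway, taken from a list that leaves out chemokines and acute-phase genes. The list was chosen with earlier results of these data known. All 39 were found by symbol among the 18227 genes of the deposited tables. They were measured by RNA sequencing in A549 and H2023, which are cell lines established from human lung tumours of the non-small cell type. Each line was used as wild type and as a ZC3H12A knockout, and each genotype was grown for 3 days in normal culture (labelled Parent) or for 7 days in a culture that enriches stem-like cells (labelled Onco, here oncosphere culture). This gave 8 groups of 2 libraries: A549 wild type and A549 ZC3H12A knockout in normal culture, the same pair in oncosphere culture, and the same 4 groups in H2023. No group received a cytokine or drug, per the labels, so the pathway was read at its level in culture. The titles name 1 knockout clone for each line, and culture type and days in culture change together. The labels do not say whether the 2 libraries of a group came from separate cultures, so every p-value rests on a spread between libraries that may be technical. In the main fit this spread was taken over all 8 groups. A gene thus had the same standard error in every comparison of 2 groups, whichever libraries were compared.

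NF-kB is a family of transcription factors whose dimers are held in the cytoplasm by inhibitor proteins. Receptors of the tumour necrosis factor, interleukin-1 and Toll-like families recruit adaptors and ubiquitin ligases to activate a kinase complex that marks the inhibitors for destruction, and the freed dimers enter the nucleus. A slower branch runs through the kinase NIK, encoded by MAP3K14, and the processing of the NFKB2 product. Many parts of the pathway are themselves induced by NF-kB, which gives negative feedback, and in epithelial tumour cells its targets include survival, adhesion and antioxidant genes. ZC3H12A encodes Regnase-1, an RNase that degrades a set of inflammatory mRNAs and is itself induced by NF-kB. The 39 members were separated into 13 parts not known mainly as NF-kB targets (called constitutive here), 17 parts whose genes are also known targets (called induced parts), and 9 targets with no core role in the pathway.

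The authors deposited expression as TPM, a unit scaled for transcript length and to a fixed total in each library. The number of reads behind a TPM value, and so its counting error, is unknown. As these are bulk samples, fewer cells of a type and less RNA per cell cannot be told apart. The mean normalized counts in the deposited tables summed to between 20453740 and 22760512 per table. In normal culture mitochondrial genes made up 10.3% to 18.7% of all TPM, and in oncospheres the share was 19.5% to 25.6%. Libraries of the same group correlated at 0.983 to 0.992 across genes, which are not independent replicates. All 6 epithelial markers looked for (EPCAM, KRT7, KRT8, KRT18, KRT19 and CDH1) were present. EPCAM and KRT19 were low in A549 in normal culture, at no more than 8.33 TPM, and in A549 knockout oncospheres, at no more than 5.92 TPM. Of the markers of other cells, 2 of 6 haematopoietic, 3 of 6 fibroblast and 1 of 4 endothelial genes were found in the tables, with a summed value of at most 66.17 TPM in any library, and that highest value was the sum of CD14 and LYZ in wild-type A549 oncospheres.

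The TPM of ZC3H12A did not follow the genotype labels in 3 of the 4 comparisons. In A549 in normal culture it was 30.72 and 34.88 in wild type and 16.9 and 19.93 in the libraries labelled knockout. In A549 oncospheres it was 48.48 and 49.17 against 60.17 and 55.6, in H2023 in normal culture 26.78 and 29.85 against 41.48 and 41.54, and in H2023 oncospheres 32.54 and 26.41 against 94.61 and 69.18. An edit that disables the protein can leave the mRNA in place, and the edited stretch is not given in the sources used here. The edited libraries are therefore called the libraries labelled knockout, and all directions below rest on that label.

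Promoter stretches of BIRC3, NFKB1, NFKBIA and TRAF3 are shown first, picked from the members whose window held the motif searched below. Many genes of the list are known to be read through NF-kB sites near their start. RefSeq promoter windows (GRCh38.p14) of the 250 bases before the start site were matched for 33 of the 39 members, and were searched on both strands for the NF-kB binding motif known as the kB consensus. It occurred in 10 of the 33 windows (30.3%) and in 8.04% of all 35116 promoter windows of that length. Only 1 window was kept for each member, while the 35116 windows were not limited to 1 a gene. By class it was found in 7 of 14 windows of the induced parts, 2 of 8 windows of the other targets, and 1 of 11 windows of the constitutive parts, that of TRAF3. Of the 12 members that were lower in A549 in normal culture (below), 10 had a window and 3 of these held a match. Of the 27 other members, 23 had a window and 7 of these held a match. Among the lower members, the windows of ICAM1, SOD2, TNFAIP2, CD83, IRAK2, IKBKE and NFKBIB held no match, and RIPK2 and IER3 had no window. The windows of CASP4, CFLAR, ICAM1, SOD2, TNFRSF9, TNIP1 and TRAF2 lay inside the gene as placed in GENCODE v29, so they may not be its main promoter. The matches of CFLAR, MAP3K8, TNFAIP3 and TNFRSF9 lay past the gene start given there. A match is a description of these letters and not evidence that a factor binds. Each sequence below runs 5′ to 3′ on the strand of its gene, stops before the gene start in GENCODE v29, and has the matches in capitals.
BIRC3 (chr11:102317255-102317388, plus strand, matches 199 and 135 bases before the RefSeq start): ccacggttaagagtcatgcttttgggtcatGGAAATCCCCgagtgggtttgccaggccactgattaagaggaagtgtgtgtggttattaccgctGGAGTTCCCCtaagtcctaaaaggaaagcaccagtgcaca
NFKB1 (chr4:102501280-102501328, plus strand, match 49 bases before the start): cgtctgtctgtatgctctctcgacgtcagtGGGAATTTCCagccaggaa
NFKBIA (chr14:35404791-35404860, minus strand, match 81 bases before the start): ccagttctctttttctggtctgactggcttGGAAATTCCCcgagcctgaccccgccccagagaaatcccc
TRAF3 (chr14:102777386-102777448, plus strand, match 33 bases before the start): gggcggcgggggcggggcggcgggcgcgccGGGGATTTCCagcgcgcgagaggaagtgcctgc
The BIRC3 stretch holds 2 matches and the other stretches 1 each. BIRC3 has a neighbour of the same family, BIRC2, which lies 7808 bases downstream on chromosome 11 and whose window held no match.

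Levels of the members in TPM spanned a wide range. TNF, the ligand, was at or near the bottom of the range, with 0.5 TPM or less in all 16 libraries. TNFRSF1A, its main receptor, lay between 224.91 and 605.88 TPM. KYNU, an enzyme of tryptophan breakdown, lay between 132.9 and 696.32 TPM, TNFAIP2, a TNF-induced regulator of the cell cortex, between 205.57 and 735.3 TPM, and SOD2, the mitochondrial superoxide dismutase, between 79.59 and 1237.05 TPM. RELA, the subunit that activates transcription in the most common dimer, was even, at 36.91 to 59.85 TPM. Knockout effects below are log2 fold changes of the libraries labelled knockout over wild type on the log2(TPM + 1) scale, which understates the change of genes with low TPM. They were tested with limma across all 18227 genes, two-sided, and a change is called where the Benjamini-Hochberg adjusted p is under 0.05. The shares of all genes set beside the limma counts include genes near 0 TPM, whose changes this scale understates. Of all genes 14823 had a mean of at least 1 TPM.

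In A549 in normal culture, members of the pathway were lower in the libraries labelled knockout. 12 of the 39 fell and 1 rose, against 10.4% of all genes that fell and 7.32% that rose (17.7% in either direction). The median log2 fold change was -0.43 over the members and -0.03 over all genes. Both libraries labelled knockout lay below both wild-type libraries for 25 of the 39 members, which was so for 34.6% of all genes, and above both for 3 members (27.2% of all genes). By class, 5 of the 9 targets fell (median log2 fold change -0.93), 6 of the 17 induced parts fell (median -0.52), and among the 13 constitutive parts 1 fell and 1 rose (median -0.25).

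**Figure D1:**
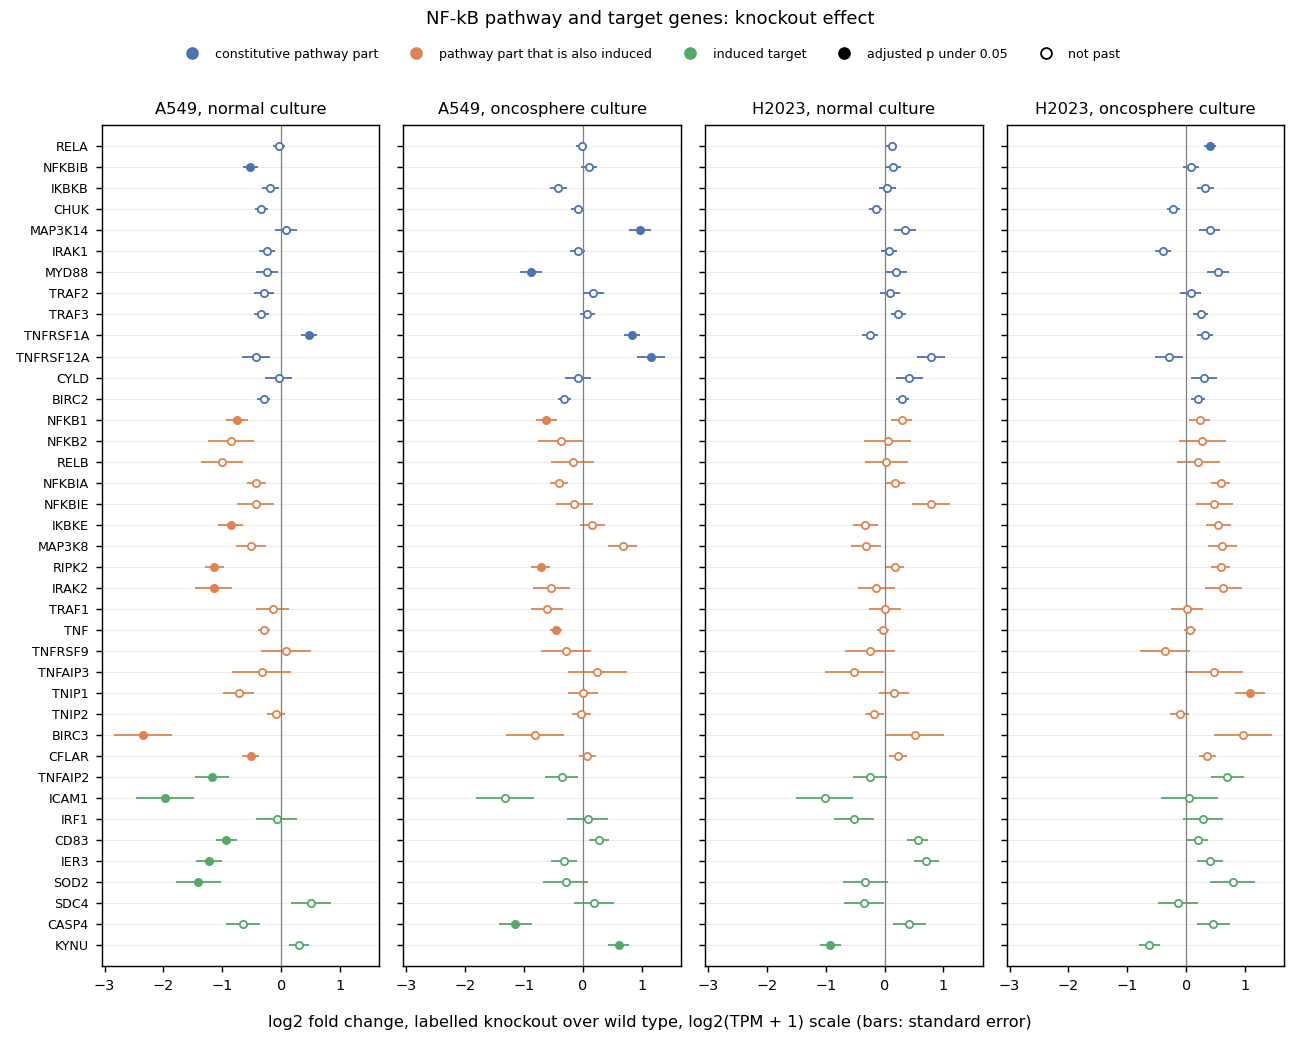
Log2 fold change of the libraries labelled knockout over wild type for the 39 members in each line and culture, on the log2(TPM + 1) scale. Points are estimates from limma with 2 libraries a group, bars are standard errors, colours give the class, and filled points passed an adjusted p of 0.05. In A549 in normal culture 12 members are filled to the left of 0 and 1 to the right, and in H2023 in normal culture 1 is filled.

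BIRC3, a ubiquitin ligase of the TNF receptor complex that blocks cell death, lies at chr11:102317450-102339403 on the plus strand (gene positions are from GENCODE v29 on GRCh38). Its TPM was 46.84 and 41.73 in wild type and 10.55 and 5.85 in the libraries labelled knockout. The groups did not overlap, and BIRC3 fell by 2.35 (SE 0.49) on the log2 scale, a ratio of mean TPM of 5.4 (limma adjusted p = 0.00697). BIRC2, its neighbour and closest relative, was at 22.04 and 21.41 TPM against 18.21 and 16.74, a log2 fold change of -0.30 that was not past the threshold (adjusted p = 0.0945 in limma).

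Among the targets, ICAM1, an adhesion molecule for leukocytes at chr19:10270835-10286615, was at 10.87 and 9.25 TPM in wild type and 2.65 and 1.15 in the libraries labelled knockout. ICAM1 fell by 1.98 (SE 0.49, limma adjusted p = 0.0157). SOD2 was at 213.69 and 220.92 TPM against 83.05 and 79.59 and fell by 1.41 (SE 0.38, limma adjusted p = 0.0248). In both genes the 2 groups stood clear of each other. IER3, an early-response gene that modulates survival, was at 228.14 and 253.63 TPM against 122.62 and 84.95 and fell by 1.23 (SE 0.22, limma adjusted p = 0.00272). TNFAIP2 was at 481.98 and 519.69 TPM against 225.9 and 215.79 and fell by 1.18 (SE 0.28, limma adjusted p = 0.0139). CD83, a surface glycoprotein best known from dendritic cells, was low throughout, at 2.29 and 1.95 TPM against 0.72 and 0.55, and fell by 0.93 (SE 0.18, limma adjusted p = 0.00382). The 4 other targets, IRF1, SDC4, CASP4 and KYNU, were not past the threshold, with log2 fold changes from -0.65 (CASP4) to 0.50 (SDC4).

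Among the kinases, RIPK2, which relays signals from the NOD receptors, was at 34.33 and 29.44 TPM in wild type and 14.26 and 13.6 in the libraries labelled knockout, and fell by 1.14 (SE 0.16, limma adjusted p = 0.000612). IRAK2, a kinase of the interleukin-1 receptor and Toll-like pathways, was at 14.72 and 11.95 TPM against 7.64 and 3.79 and fell by 1.15 (SE 0.32, limma adjusted p = 0.0265). IKBKE, an IKK-related kinase, was at 12.05 and 11.77 TPM against 6.8 and 5.49 and fell by 0.86 (SE 0.21, limma adjusted p = 0.016). For each of the 3 kinases no library labelled knockout reached the lower wild-type library. IKBKB and CHUK, which encode the catalytic subunits of the core kinase complex, had log2 fold changes of -0.19 and -0.34 and were not past the threshold.

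Of the 4 subunit genes, NFKB1, which encodes p105 and its product p50, was at 24.7 and 17.96 TPM in wild type and 13.37 and 10.97 in the libraries labelled knockout, and fell by 0.75 (SE 0.18, limma adjusted p = 0.0142). NFKB2 and RELB, the subunits of the slower branch, had log2 fold changes of -0.85 and -1.01 without passing the threshold (limma adjusted p = 0.161 and 0.0783). RELA was at 57.84 and 58.31 TPM against 59.7 and 53.59, and its groups overlapped. The other members that fell were NFKBIB, an inhibitor, and CFLAR, which blocks caspase-8, each by 0.52 (limma adjusted p = 0.017 and 0.0286). CFLAR was not called in the authors' deposited table (log2 fold change -0.23), nor in fits of only the 4 libraries or of the 8 libraries of A549. NFKBIB was called in all of these, but in no fit that left out a single library of this comparison. CFLAR was called in such a fit only without knockout replicate 1. The only member that rose in the main limma fit was TNFRSF1A, from 344.36 and 314.74 TPM to 450.79 and 461.32 (log2 fold change 0.47, SE 0.14, limma adjusted p = 0.0319). The brakes TNFAIP3 (A20), TNIP1, TNIP2 and CYLD had log2 fold changes from -0.72 to -0.05 and none passed in the main limma fit. The authors' deposited table called TNFAIP3 (log2 fold change -0.67), TNIP1 (-0.64), NFKB2 (-0.78) and NFKBIA (-0.41) lower, and not TNIP2, CYLD or RELB. Besides TNFRSF1A it called the targets SDC4 (0.57) and KYNU (0.39) higher. TNIP1 was also called lower in fits of only the 4 libraries and of the 8 libraries of A549.

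**Figure D2:**
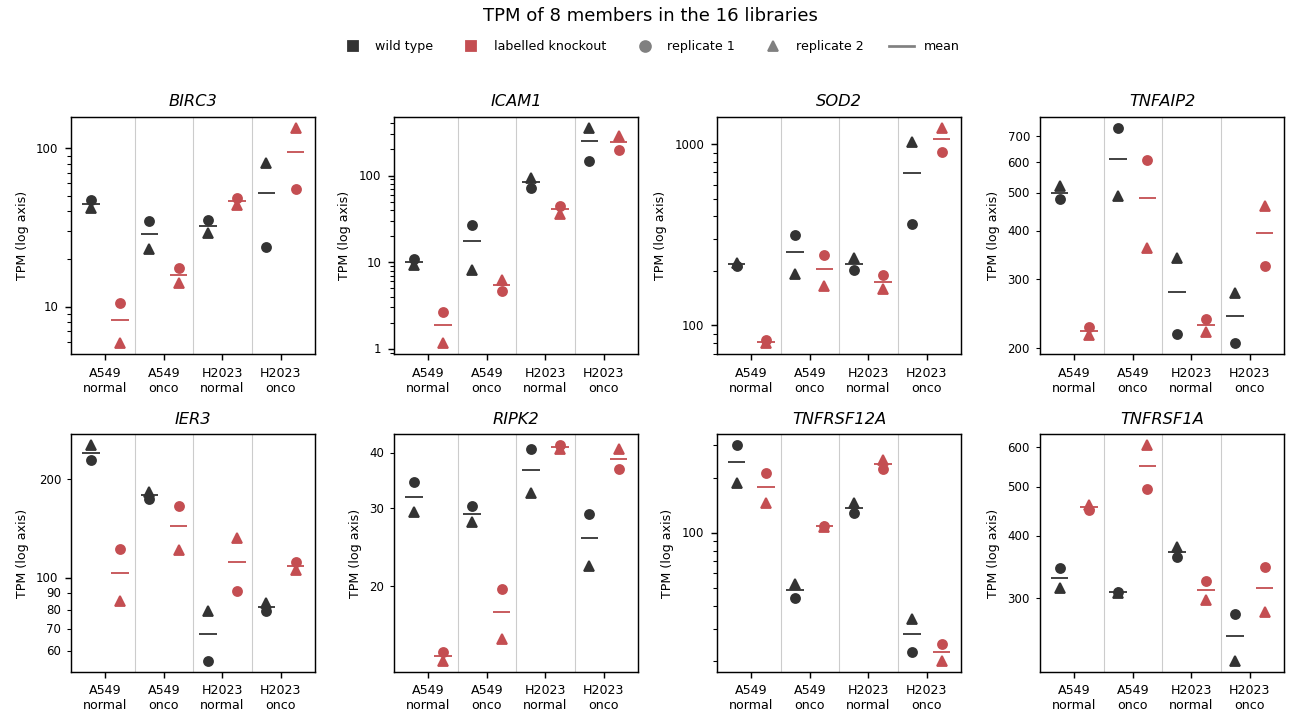
TPM of 8 members in each of the 16 libraries, on a log axis, for wild type (dark) and the libraries labelled knockout (red) by line and culture, with circles for replicate 1, triangles for replicate 2 and lines for the mean of 2. BIRC3, ICAM1, SOD2, TNFAIP2, IER3 and RIPK2 stand apart by genotype in A549 in normal culture, where BIRC3 was at 41.73 TPM or more in wild type and at most 10.55 in the libraries labelled knockout, and the H2023 oncosphere replicates of BIRC3, ICAM1 and SOD2 are far apart.

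With 2 libraries a group the calls in A549 in normal culture depended on single libraries. RIPK2, IER3 and CD83 passed in all 4 fits that left out 1 library, and they were the only members that passed without wild-type replicate 1 or without knockout replicate 2. 7 members fell without wild-type replicate 2 and 10 without knockout replicate 1, so that the count ranged from 3 to 10, and TNFRSF1A passed in none of the 4. SOD2 and TNFAIP2 did not pass in any of the 4, with limma adjusted p from 0.0879 to 0.112 and from 0.0586 to 0.0781, though their fold changes stayed between -1.44 and -1.38 and between -1.23 and -1.12. Of the 38 members with an adjusted p in the authors' deposited table, 15 fell and 3 rose, against 10.9% and 11.2% of all genes. The epithelial markers moved in the same comparison. Their summed TPM was 9174.73 to 9346.45 in wild type and 2570.99 to 5009.28 in the libraries labelled knockout. KRT8, KRT18, KRT19 and CDH1 fell, and mean EPCAM went from 1.61 to 0.65 TPM. Mean KRT7 did not fall, at 1739.1 TPM in wild type and 1803.66 in the libraries labelled knockout. The part of epithelial state in the NF-kB result was not tested.

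In A549 oncospheres 2 receptors, the NIK kinase and KYNU were higher in the libraries labelled knockout. 4 of the 39 members rose, against 10.2% of all genes, and 5 fell, against 10.5% (20.7% in either direction), and the median log2 fold change was -0.09 (0.03 over all genes). Both libraries labelled knockout lay above both wild-type libraries for 6 members (32.7% of all genes) and below for 13 (27.8%). TNFRSF12A, the receptor of the cytokine TWEAK at chr16:3018445-3022383, was at 44.33 and 52.59 TPM in wild type and 109.48 and 108.03 in the libraries labelled knockout. It rose by 1.16 (SE 0.24, limma adjusted p = 0.0049). MAP3K14, which TWEAK receptor signalling stabilizes at the protein level, was at 4.54 and 5.43 TPM against 8.84 and 12.78 and rose by 0.96 (SE 0.19, limma adjusted p = 0.00287). TNFRSF1A went from 308.89 and 307.91 TPM to 495.51 and 605.88 and rose by 0.83 (SE 0.14, limma adjusted p = 0.000958). These 3 members passed in all 4 fits that left out 1 library. KYNU was at 448.51 and 423.4 TPM against 631.89 and 696.32 and rose by 0.60 (SE 0.17, limma adjusted p = 0.0274), and it did not pass in any of those 4 fits (adjusted p from 0.0633 to 0.155).

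CASP4, an inflammatory caspase that senses bacterial lipopolysaccharide, was at 26.72 and 18.66 TPM in wild-type A549 oncospheres and 11.29 and 8.02 in the libraries labelled knockout, and fell by 1.15 (SE 0.28, limma adjusted p = 0.0126). MYD88, the adaptor of Toll-like and interleukin-1 receptors, was at 46.7 and 30.84 TPM against 19.2 and 21.13 and fell by 0.88 (SE 0.19, limma adjusted p = 0.0052). RIPK2 was at 30.37 and 27.95 TPM against 19.78 and 15.21 and fell by 0.72 (SE 0.16, limma adjusted p = 0.0077). NFKB1 was at 19.51 and 13.57 TPM against 10.29 and 10.21 and fell by 0.62 (SE 0.18, limma adjusted p = 0.0297). RIPK2 and NFKB1 thus fell in both cultures of A549, though in oncospheres RIPK2 was lost in 2 and NFKB1 in 3 of the 4 fits that left out 1 library (adjusted p up to 0.0893 and 0.255). CASP4 was lost in 2 of those fits (up to 0.116) and MYD88 in 1 (up to 0.0606). TNF was listed at 0.36 and 0.5 TPM against 0.0 and 0.09, and its fall of 0.45 on this scale (limma adjusted p = 0.00905) was one between values near 0. Without wild-type replicate 1 only 4 members passed (MAP3K14, TNFRSF12A, TNFRSF1A and TNF), and a fit of only the 4 libraries called 5. Of the other members, BIRC3 was at 34.61 and 23.27 TPM against 17.5 and 14.02 and ICAM1 at 27.07 and 8.09 against 4.59 and 6.29. Their log2 fold changes of -0.82 and -1.32 did not pass the threshold (limma adjusted p = 0.28 and 0.0758), while the authors' deposited table called BIRC3 lower and not ICAM1. Epithelial markers differed here as well. From wild type to the libraries labelled knockout, mean EPCAM went from 8.67 to 0.92 TPM, KRT19 from 74.03 to 4.61 and KRT7 from 1204.97 to 647.22. The means of KRT8, KRT18 and CDH1 were higher. The part of epithelial state in these members' values was not tested.

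In H2023 in normal culture few genes of any kind passed. KYNU, at chr2:142877498-143055832, was at 244.1 and 274.7 TPM in wild type and 132.9 and 139.6 in the libraries labelled knockout. It was the only member to pass and fell by 0.92 (SE 0.17, limma adjusted p = 0.015), against 1.97% of all genes that fell and 1.03% that rose. The call was lost without wild-type replicate 2 and without either library labelled knockout (adjusted p up to 0.137), and in fits of the 4 libraries or of the 8 libraries of H2023, which called 0 members. The median log2 fold change of the members was 0.07, and both libraries labelled knockout stood above both wild-type libraries for 19 members (26.1% of all genes) and below for 11 (24.5%). ICAM1 was at 72.62 and 94.66 TPM against 44.81 and 36.4, TNFRSF12A at 128.33 and 145.45 against 223.84 and 251.05, and NFKBIE, an inhibitor, at 9.26 and 9.26 against 16.61 and 16.88. In all 3 the groups did not overlap, and none passed in limma (log2 fold changes -1.02, 0.79 and 0.79; adjusted p = 0.309, 0.109 and 0.218). The authors' deposited table, with its own model, called 4 members higher (BIRC3, IER3, NFKBIE and TNFRSF12A) and 2 lower (ICAM1 and KYNU) of 38, against 3.84% and 6.97% of all genes.

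In H2023 oncospheres the members leaned upward, and 2 passed. The median log2 fold change of the members was 0.3 against 0.06 over all genes. 32 of the 39 log2 fold changes were above 0, a count without a background, as the share of all genes above 0 is not reported here. TNIP1, which helps A20 restrain the pathway, was at 47.13 and 86.31 TPM in wild type and 112.51 and 166.86 in the libraries labelled knockout, and rose by 1.09 (SE 0.26, limma adjusted p = 0.0298). RELA was at 36.91 and 40.24 TPM against 48.54 and 54.32 and rose by 0.41 (SE 0.10, limma adjusted p = 0.0334). Against these 2, 3.17% of all genes rose, and 0 members fell against 2.4% of all genes (5.56% in either direction). 13 members had an unadjusted limma p under 0.05. The share of all genes at that level is not reported here, so this count has no background beside it. RELA no longer passed when libraries were centred on their median (log2 fold change 0.35, limma adjusted p = 0.0588), nor when any of the 4 libraries was left out (adjusted p from 0.0573 to 0.182). TNIP1 was lost without wild-type replicate 1 and without knockout replicate 2 (adjusted p up to 0.182). Both libraries labelled knockout lay above both wild-type libraries for 18 members (28.6% of all genes) and below for 3 (18.9%). BIRC3, SOD2 and TNFAIP2 had log2 fold changes of 0.96, 0.79 and 0.70 and were not past the threshold (limma adjusted p = 0.289, 0.258 and 0.178). Among the libraries numbered 1 and those numbered 2, the genotypes differed by 1.19 and 0.73 for BIRC3 and by 0.66 and 0.74 for TNFAIP2, and both passed in the fit with the replicate number as a block (limma adjusted p = 0.017 and 0.039). The epithelial markers moved in this comparison too. Their summed TPM was 4326.64 to 4565.21 in wild type and 7766.26 to 8272.57 in the libraries labelled knockout. KRT8 and KRT18 rose, and the means of KRT7 and KRT19 were higher. Mean EPCAM went the other way, from 39.54 to 23.83 TPM, and mean CDH1 from 19.3 to 17.6. In H2023 in normal culture the sum was 8749.37 to 9396.92 in wild type and 12325.81 to 13032.08 in the libraries labelled knockout. The part of epithelial state in these members' values was not tested. IRAK1, which was lower, was the single member of 38 called in the authors' deposited table, where 2.85% of all genes were lower and 2.22% higher.

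The spread between the H2023 oncosphere replicates was itself marked in these genes. The libraries numbered 2 stood above those numbered 1 in both genotypes for 27 of the 39 members, against 5285 of the 18227 genes, and by more than 0.5 on the log2 scale in both for 9 members, against 2.6% of all genes. The median of replicate 2 minus replicate 1 over the members was 0.52 in wild type and 0.27 in the libraries labelled knockout, and -0.02 and -0.01 over all genes. BIRC3 was at 23.73 and 80.87 TPM in wild type and 55.39 and 135.08 in the libraries labelled knockout. TNFAIP3, the A20 brake, was at 5.46 and 18.23 against 8.52 and 24.2, NFKB2 at 48.88 and 145.13 against 80.15 and 130.49, and ICAM1 at 148.14 and 356.83 against 197.94 and 287.59. For BIRC3, TNFAIP3 and ICAM1 the replicates of either genotype differed more than the genotypes did within either replicate number. As the main fit took 1 spread per gene over all groups, these pairs also entered the standard errors of the same genes in A549 and in normal culture. For TNIP1 the difference between genotypes was 1.24 among the libraries numbered 1 and 0.94 among those numbered 2, and for SOD2 it was 1.31 and 0.27. In the other 3 pairs of groups, 0 members stood higher in replicate 2 by more than 0.5 in both genotypes. The shares of all genes there were 0.768% and 0.735% in A549 normal and oncosphere culture and 0.335% in H2023 normal culture. Members higher in replicate 1 were not counted. In A549 oncospheres TNFAIP2, SOD2 and SDC4 were higher in replicate 1 by more than 0.5 in both genotypes (TNFAIP2 at 735.3 and 490.14 TPM, then 607.78 and 360.87). The same held for TNFRSF12A in A549 in normal culture. Other members, among them BIRC3, RIPK2, IRAK2, CASP4 and TNIP1, were higher in replicate 1 in both genotypes of A549 oncospheres without passing 0.5 in both. Whether number marks a shared day or batch is not given in the sources used here. In the alternative that left out both libraries numbered 2, chosen after this was seen, TNIP1 and NFKBIA rose and RELA did not pass.

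**Figure D3:**
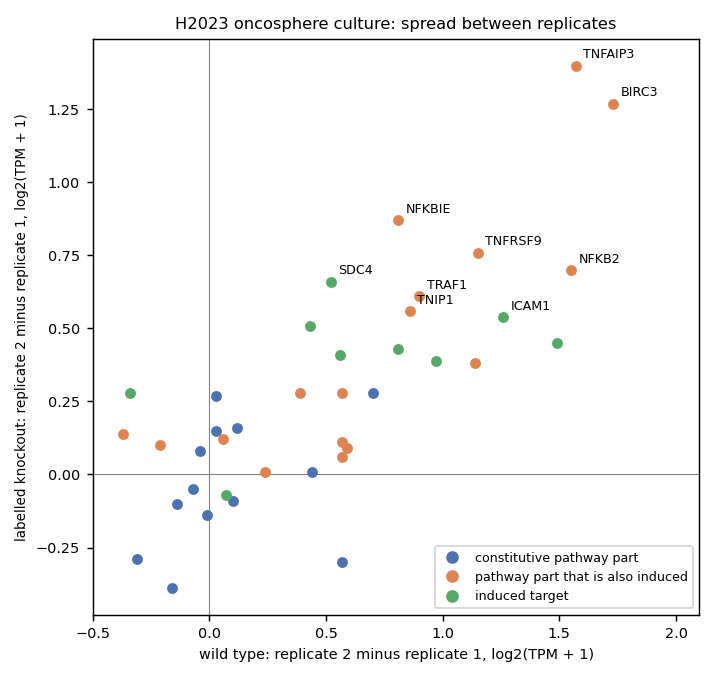
Difference between replicate 2 and replicate 1 on the log2(TPM + 1) scale in H2023 oncospheres, wild type on the horizontal axis and the libraries labelled knockout on the vertical axis, with 1 point for each of the 39 members, coloured by class. 27 members lie above 0 on both axes, and the 9 above 0.5 on both are named, with BIRC3 and TNFAIP3 farthest out.

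The effect of the knockout label differed between the lines for several members, and this difference was tested directly in the same model as H2023 minus A549. In normal culture the difference was positive for 9 members, against 6.61% of all genes, and negative for 2, against 5.46%. BIRC3 had the largest difference, 2.86 (SE 0.70, limma adjusted p = 0.0208), made of -2.35 in A549 and 0.51 in H2023. In H2023 BIRC3 was at 35.09 and 29.16 TPM in wild type and 48.36 and 43.99 in the libraries labelled knockout. IER3 differed by 1.94 (SE 0.31, limma adjusted p = 0.00232), made of -1.23 and 0.71, with 55.87 and 79.41 TPM in wild-type H2023 against 91.29 and 131.97. CD83 differed by 1.49 (adjusted p = 0.00292 in limma), RIPK2 by 1.31 (0.00363) and TNFRSF12A by 1.22 (0.0369). KYNU went the other way, with 0.30 in A549 and -0.92 in H2023, a difference of -1.22 (limma adjusted p = 0.00828). IER3, CD83, RIPK2 and KYNU passed in all 8 fits that left out 1 library, while BIRC3 was lost in 5 of them (adjusted p up to 0.0844) and TNFRSF12A in 6 (up to 0.142).

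In oncospheres 7 differences between lines were positive, against 9.37% of all genes, and 2 negative, against 6.9%. CASP4 differed by 1.61 (SE 0.40, limma adjusted p = 0.017), MYD88 by 1.42 (0.00351), RIPK2 by 1.30 (0.00246) and NFKBIA, an inhibitor whose gene NF-kB induces, by 0.99 (0.0106). NFKBIA was at 133.84 and 153.95 TPM in wild-type A549 and 115.78 and 101.02 in the libraries labelled knockout, and at 80.58 and 121.43 against 144.7 and 154.19 in H2023, so that the 2 lines moved apart without a call in either. TNFRSF12A differed by -1.45 (limma adjusted p = 0.0129) and KYNU by -1.23 (0.00529). For TNFRSF12A the sign was thus opposite to that in normal culture, where it was 1.22. MYD88, RIPK2, KYNU and NFKBIA passed in all 8 fits that left out 1 library, while CASP4 was lost in 4 (adjusted p up to 0.0732) and TNFRSF12A in 2 (up to 0.0521). RIPK2 and KYNU passed in every such fit in both cultures, each with the same sign.

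Within a line, the effect of the knockout label was also compared between cultures, as oncosphere minus normal. In A549 2 differences were positive, against 5.61% of all genes, and 0 were negative, against 4.1% (9.71% in either direction). TNFRSF12A differed by 1.59 (SE 0.34, limma adjusted p = 0.0154) and CD83 by 1.21 (SE 0.25, limma adjusted p = 0.0126). For CD83, wild type fell from 2.29 and 1.95 TPM in normal culture to 0.25 and 0.23 in oncospheres, and the libraries labelled knockout were at 0.72 and 0.55 and then at 0.43 and 0.57. TNFRSF12A was lost in 4 of the 8 fits that left out 1 library (adjusted p up to 0.0634) and CD83 in 3 (up to 0.0544), and without A549 normal-culture wild-type replicate 1 or knockout replicate 2 0 members passed. BIRC3 and MAP3K8, a kinase upstream of ERK also called TPL2, differed by 1.53 and 1.19 and did not pass (limma adjusted p = 0.194 and 0.0532). In H2023 0 members passed in limma, and 0.00549% of all genes passed with a positive difference. 7 members had an unadjusted limma p under 0.05, and the share of all genes at that level is not reported here. A difference computed from the authors' deposited fold changes called 0 members as well.

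**Figure D4:**
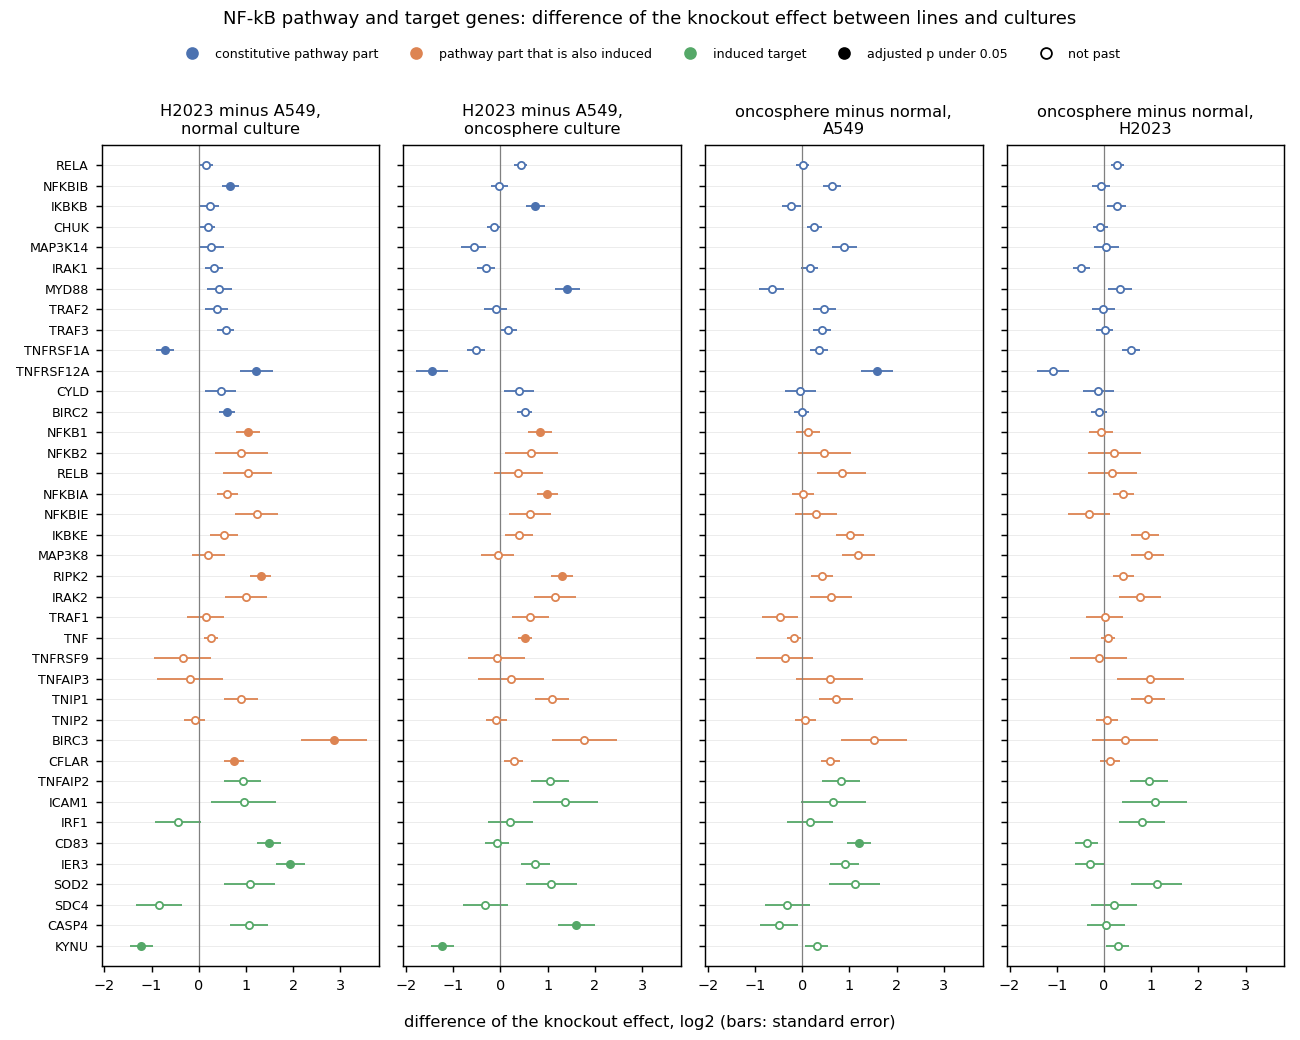
Difference of the knockout effect between lines (2 left panels, H2023 minus A549) and between cultures (2 right panels, oncosphere minus normal) for the 39 members, in log2 units with standard errors from limma. Filled points passed an adjusted p of 0.05. BIRC3 lies farthest right in the first panel at 2.86, TNFRSF12A lies right of 0 in the first panel and left of 0 in the second, and the fourth panel has 0 filled points.

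With culture, oncosphere against normal, MAP3K14 and TRAF3 fell in both lines and both genotypes. NFKB2 and RELB, the subunits of the slower branch in which these genes also act, were not called in any of the 4 culture comparisons. These comparisons cross the deposited tables, and TPM was scaled within each library. MAP3K14 was at 24.55 and 22.94 TPM in wild-type A549 in normal culture and 4.54 and 5.43 in oncospheres, and fell by 2.05 (SE 0.19, limma adjusted p = 4.73e-06). It also fell in the A549 libraries labelled knockout by 1.16, in wild-type H2023 by 1.76 and in H2023 labelled knockout by 1.71 (limma adjusted p = 0.000797, 7.21e-05 and 3.84e-05). TRAF3, the adaptor that targets NIK for destruction, fell in the same 4 comparisons, by 1.12, 0.71, 0.77 and 0.75, from 23.11 and 20.92 TPM to 10.47 and 8.72 in wild-type A549. TNFRSF12A fell by 2.27 in wild type of both lines and by 3.36 in H2023 labelled knockout. In A549 labelled knockout its change of -0.69 did not pass (limma adjusted p = 0.0612). In wild-type H2023 it went from 128.33 and 145.45 TPM to 22.37 and 33.81.

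Of the 9 targets, 2 rose in wild-type H2023 and 4 in H2023 labelled knockout, against 5.17% and 9.76% of all genes, and 0 fell in either. SOD2 was at 201.77 and 235.6 TPM in wild-type H2023 in normal culture and 364.5 and 1027.27 in oncospheres, and rose by 1.49 (SE 0.38, limma adjusted p = 0.0127). In the H2023 libraries labelled knockout SOD2 went from 189.62 and 159.69 to 906.45 and 1237.05 TPM and rose by 2.60 (SE 0.38, limma adjusted p = 0.000305). ICAM1 rose by 1.46 in wild type and by 2.53 in the libraries labelled knockout (limma adjusted p = 0.0426 and 0.00183). Both wild-type calls were lost without H2023 oncosphere wild-type replicate 2, the higher of the pair, and without normal-culture wild-type replicate 1, and that of ICAM1 also without normal-culture wild-type replicate 2 (adjusted p up to 0.103 for SOD2 and 0.311 for ICAM1). IRAK2 and IRF1, a transcription factor of the interferon response, rose by 1.66 and 1.43 in H2023 labelled knockout (limma adjusted p = 0.00172 and 0.00702), and IRF1 was lost in 2 of the 4 fits that left out 1 library (up to 0.0602). IRAK1, the kinase that IRAK2 resembles, fell by 0.61 in wild-type H2023 (limma adjusted p = 0.00565).

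Of the 9 targets, 1 rose and 1 fell in wild-type A549 (19.1% and 22.4% of all genes) and 4 rose in A549 labelled knockout (11.4% of all genes), among them SOD2 and KYNU, which also rose in H2023 labelled knockout. CASP4 rose by 1.64 in wild type, from 7.09 and 5.93 to 26.72 and 18.66 TPM, and by 1.14 in the libraries labelled knockout (limma adjusted p = 0.000627 and 0.0121). MYD88 rose by 1.01 and CD83 fell by 1.33 in wild type (limma adjusted p = 0.00098 and 8.59e-05). SOD2, TNFAIP2, IKBKE and MAP3K8 rose in A549 labelled knockout by 1.30, 1.08, 0.92 and 0.75 (limma adjusted p = 0.0286, 0.0162, 0.0081 and 0.049), and in wild type their changes lay between -0.44 and 0.26 without passing. Each of those 4 calls, and that of CASP4 in the same libraries, was lost in 2 or 3 of the 4 fits that left out 1 library. SOD2 in A549 labelled knockout started from 83.05 and 79.59 TPM and reached 244.92 and 164.92, values that overlapped those of wild-type oncospheres (315.2 and 191.92).

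Over all members, the counts for culture were 2 higher and 7 lower in wild-type A549 (19.1% and 22.4% of all genes), 6 higher and 2 lower in A549 labelled knockout (11.4% and 11.0%), 2 higher and 9 lower in wild-type H2023 (5.17% and 22.2%), and 8 higher and 5 lower in H2023 labelled knockout (9.76% and 22.7%). Calls in either direction took 41.5% of all genes in wild-type A549. Both oncosphere libraries stood above both others for 8, 17, 7 and 17 members in that order (33.7%, 30.6%, 14.6% and 22.7% of all genes) and below for 17, 8, 13 and 11 (37.5%, 32.0%, 46.1% and 42.9%). The constitutive parts made up most of the falls in wild type, with 6 of 13 in wild-type A549 and 8 of 13 in wild-type H2023. The median over all genes moved by -0.18 in wild-type H2023 and by -0.12 in H2023 labelled knockout. Relative to the median, 4 members were higher and 4 lower in wild-type H2023 (5 and 4 with mitochondrial genes left out of TPM). In H2023 labelled knockout 11 were higher and 5 lower (10 and 5). The shares of all genes called under these 2 scalings are not reported here. BIRC2, IKBKB, RELA, RIPK2 and TNFRSF1A were the members whose fall in wild-type H2023 was lost under that centring, while MAP3K14, TRAF3, TNFRSF12A and IRAK1 were called under each scaling. Without H2023 oncosphere wild-type replicate 1, 9 members were higher and 8 lower.

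**Figure D5:**
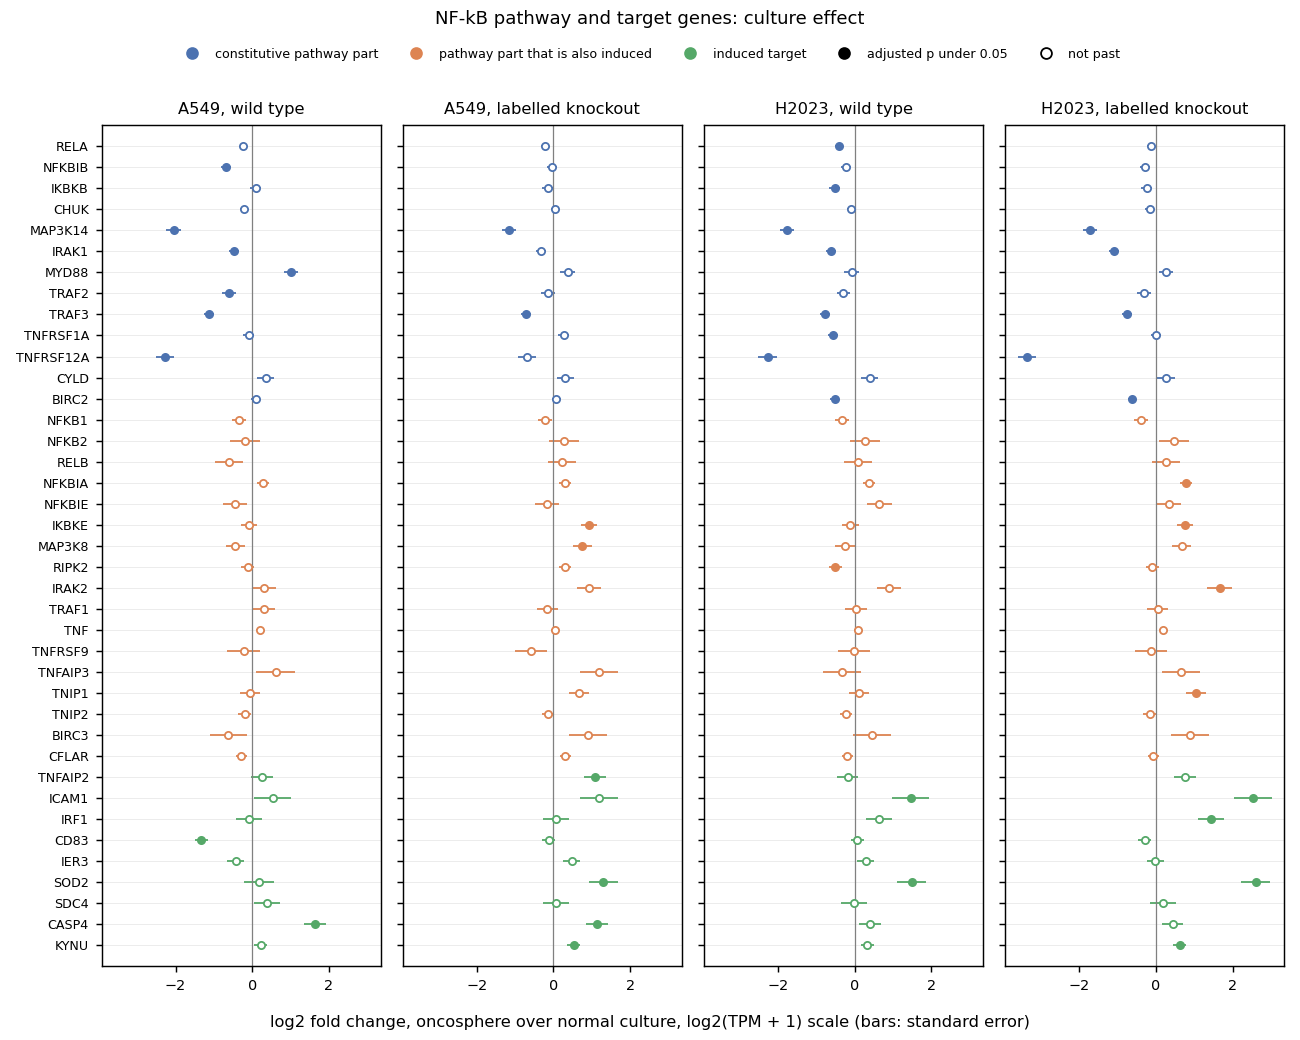
Log2 fold change of oncosphere over normal culture for the 39 members in each line and genotype, on the log2(TPM + 1) scale, with standard errors from limma and 2 libraries a group. Filled points passed an adjusted p of 0.05. MAP3K14 and TRAF3 are filled left of 0 in all 4 panels, and SOD2 and ICAM1 are filled right of 0 in both H2023 panels.

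Other pathway parts and targets were set beside the members. Their lists were chosen with earlier results of these data known, so they are not an independent background. Of 36 further pathway parts found in the tables, 2 rose and 4 fell in A549 in normal culture, 3 rose and 6 fell in A549 oncospheres, 1 rose and 1 fell in H2023 in normal culture, and 4 rose and 1 fell in H2023 oncospheres. Over all genes 7.32% rose and 10.4% fell in the first of these comparisons, 10.2% rose and 10.5% fell in the second, 1.03% rose and 1.97% fell in the third, and 3.17% rose and 2.4% fell in the last. NFKBIZ, an inducible nuclear inhibitor whose mRNA is a known Regnase-1 target, was at 4.3 and 7.8 TPM in wild-type H2023 oncospheres and 24.78 and 31.32 in the libraries labelled knockout. It rose by 2.08 (SE 0.25, limma adjusted p = 0.000991) and passed in all 4 fits that left out 1 library. In A549 in normal culture NFKBIZ fell by 0.85, from 9.11 and 9.77 TPM to 4.12 and 5.55 (limma adjusted p = 0.0329), and passed in none of those 4 fits (adjusted p from 0.0606 to 0.187). TLR4, the lipopolysaccharide receptor, was below 4 TPM in all libraries and rose in A549 oncospheres by 1.41, in H2023 in normal culture by 0.94 and in H2023 oncospheres by 1.65 (limma adjusted p = 0.000517, 0.0327 and 0.00144), of which that in H2023 in normal culture was lost in all 4 fits that left out 1 library. TANK, a scaffold of IKK-related kinases, rose by 0.83 in A549 in normal culture and fell by 0.58 in H2023 oncospheres (limma adjusted p = 0.00178 and 0.0319), the latter lost in 3 of those fits. CARD10, a scaffold that links protein kinase C to the core kinase complex, fell by 1.11 and 1.30 in the 2 cultures of A549 (limma adjusted p = 0.04 and 0.0167), lost in 2 and 3 of those fits.

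Of 29 further NF-kB targets found, 2 rose and 10 fell in A549 in normal culture and 5 rose and 12 fell in A549 oncospheres, with median log2 fold changes of -0.66 and -0.71. Over all genes 7.32% rose and 10.4% fell in the first comparison and 10.2% and 10.5% in the second, with medians of -0.03 and 0.03. In H2023 0 rose and 2 fell in normal culture (1.03% and 1.97% of all genes), and 4 rose and 0 fell in oncospheres (3.17% and 2.4%). IL32, a cytokine of epithelial and immune cells, was at 41.91 and 27.55 TPM in wild-type A549 in normal culture and 2.95 and 1.81 in the libraries labelled knockout, and fell by 3.39 (SE 0.63, limma adjusted p = 0.00334). PTGS2, which makes prostaglandins, was at 79.81 and 115.2 TPM against 9.41 and 9.15 and fell by 3.24 (SE 0.36, limma adjusted p = 0.000122), and in H2023 in normal culture it fell by 1.91 from 11.99 and 7.55 TPM to 2.08 and 1.56 (limma adjusted p = 0.015), a call lost in all 4 fits that left out 1 library. LTB, a ligand of the slower branch, fell by 2.85 and 3.09 in the 2 cultures of A549, from 11.77 and 6.42 TPM to 0.39 and 0.32 in normal culture. Not all targets fell in A549. VCAM1, an adhesion molecule, was at 0.76 and 0.32 TPM in wild-type A549 oncospheres and 25.37 and 14.59 in the libraries labelled knockout, and rose by 3.73 (SE 0.23, limma adjusted p = 9.49e-07), while ICAM1 had a log2 fold change of -1.32 in the same libraries. TNC, a matrix protein, rose by 2.72 there. TNFSF15, a ligand of the TNF family, fell by 2.47 in A549 oncospheres, from 7.61 and 7.45 TPM to 0.61 and 0.47, and rose by 1.51 in H2023 oncospheres, where both libraries labelled knockout were at 38.63 TPM or more (limma adjusted p = 6.37e-05 and 0.0099), the latter lost in 2 of 4 such fits.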

How the data were processed

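RNA-seq of 16 libraries (2 a group) was read from 4 deposited tables of 18361 rows; 119 identifiers held several rows of identical values, of which 1 was kept. The authors deposited TPM per library, a mean normalized count over each table's 4 libraries (a signal value), a log2 fold change with its standard error, a score (test statistic) and p-values, per the file headers. HISAT2, StringTie and GRCh38 are named in the submitters' processing notes; their versions, the counting and the annotation are not given in the sources used here. The statistic of the authors' deposited tables had the opposite sign to the fold change, so directions come from the fold change. TPM summed to 991838 to 998125 per library.

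limma 3.58.1 (R 4.3.3, trend, two-sided) was fitted to log2(TPM + 1) as 1 model of 8 group means over 16 libraries, unfiltered, with Benjamini-Hochberg adjustment over 18227 genes and a threshold of 0.05, after a test on simulated data. Alternatives were a pseudocount of 0.1, a filter at a mean of 1 TPM, median centring, TPM without 15 mitochondrial genes, a replicate block, fits on 4 or 8 libraries, each library left out, and the authors' own results. Members and lists were chosen with earlier results of these data known. Values are given for up to 10 called members with the largest changes in each knockout effect and up to 6 in the others (where fewer than 4 passed, the 4 largest with a group mean of at least 1 TPM), and for up to 4 called genes of each further list. Motifs were searched in RefSeq promoters.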

Additional observations from a re-analysis of the deposited data

Results flagged for a closer look

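These results were picked out because the effect of the knockout label differed between the 2 lines, or between the 2 cultures of a line, by a direct test in limma. In normal culture the difference of H2023 minus A549 was 2.86 for BIRC3, 1.94 for IER3, 1.49 for CD83, 1.31 for RIPK2, 1.22 for TNFRSF12A and -1.22 for KYNU. In oncospheres it was 1.61 for CASP4, 1.42 for MYD88, 1.3 for RIPK2, 0.99 for NFKBIA, -1.23 for KYNU and -1.45 for TNFRSF12A. Between the cultures of A549, oncosphere minus normal, it was 1.59 for TNFRSF12A and 1.21 for CD83. Each value is a log2 difference between 2 effects of 2 libraries a side. Each line is represented by 1 clone, so the line and the clone cannot be told apart. TNFRSF12A is in all 3 sets and RIPK2, KYNU and CD83 in 2 each.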

How the results depend on the processing

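No fold change picked by the rule for named values changed sign under any alternative. Other members with values near 0 could change sign. In A549 in normal culture CYLD was at -0.045 and at 0.14 in the authors' deposited table. RELA was at -0.037 and 0.02, and TNFRSF9 at 0.089 and -0.09. The count of members called under the knockout label moved by over 1.5 times from 9 to 5 in A549 oncospheres with only the 4 libraries of the comparison. In H2023 in normal culture it went from 1 to 0 in fits of the 4 or the 8 libraries and to 6 in the authors' deposited table, and in H2023 oncospheres from 2 to 5 with the TPM filter, to 0 in fits of 4 or 8 libraries and to 1 in the authors' deposited table. The culture difference in A549 went from 2 to 5 with the filter and to 7 with the authors' deposited fold changes. The cause was not tested. Leaving out 1 library gave 3 to 10 members in A549 in normal culture (13 with all), 4 to 8 in A549 oncospheres (9), 0 to 1 in H2023 in normal culture (1), 0 to 3 in H2023 oncospheres (2), 2 to 7 for culture in A549 labelled knockout (8), 7 to 17 for culture in wild-type H2023 (11), 0 to 3 for the culture difference in A549 (2), and 4 to 8 and 5 to 12 for the line differences in normal culture (11) and oncospheres (9). Where 1 library of a group remained, it was assumed to vary like the other groups.

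With the replicate number as a block, the count was 6 in H2023 oncospheres, 10 for the culture difference in A549, and 17 and 15 for the line differences in normal culture and oncospheres, and it stayed within 1.5 times elsewhere. Deviations of same-numbered libraries correlated at 0.075, 0.131, 0.027 and 0.461 between genotypes (A549 normal and oncosphere, then H2023) and at 0.121, 0.096, 0.162 and 0.134 between cultures (A549 wild type and labelled knockout, then H2023). As 3 of the 8 were under 0.1 and no label ties the numbers to a day or batch, the block was kept as an alternative, although same-numbered H2023 oncosphere libraries varied together. There the block called BIRC3, NFKBIA, RELA, TNFAIP2 and TNIP1 higher and KYNU lower. The shares of all genes called with the block are not reported here. Over the named genes and all fits that left out 1 library, 349 values kept their side of the threshold, 129 no longer passed and 2 newly passed; under the other settings 671 kept it, 73 no longer passed and 10 newly passed. TPM keeps no depth, so the precision of genes near 0, such as TNF, is unknown.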
